A study of Mus musculus with 4 samples.

Results

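Doxycycline (dox) was compared with no dox in mouse embryonic fibroblasts (MEFs, cells grown out of embryos) that carry a luciferase hairpin but no transactivator. The comparison rests on 2 of the 4 small RNA libraries of the series, titled shLuc.1309 (-dox) and shLuc.1309 (+dox), 1 library each. All 477 endogenous microRNAs listed in either library were taken, of 508 listed over the 4 libraries, and 372 passed a floor on low values. Both groups are of the strain shLuc.1309, so both carry a short hairpin RNA (shRNA) whose target, firefly luciferase, is no mouse gene. The other 2 libraries, of the strain shLuc.1309;ROSA-rtTA with and without dox, also carry rtTA, a transcription factor that needs bound dox to activate promoters with tetracycline operators. ROSA names the widely active Rosa26 locus. No source used here gives the dose or duration of dox, the number of embryos behind each culture or whether cultures were pooled. With 1 library in each group no difference below has a replicate check, and each compares 2 libraries.

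MicroRNAs are cut from hairpin precursors by Drosha in the nucleus and Dicer in the cytoplasm, and 1 arm of the hairpin is usually loaded into Argonaute as the guide while the other, the passenger, is mostly lost. In the names used here a star marks the arm listed as the passenger. The seed, bases 2 to 8 of the mature strand, does most of the pairing with target transcripts. Doxycycline is an antibiotic that binds the bacterial ribosome and can slow the ribosome of mitochondria, and cells without rtTA serve as the usual control for the drug itself.

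The sequences of 5 of the 6 microRNAs that lay at least 2-fold apart are shown with the other arm where its value is used below, as deposited (DNA letters, 5′ to 3′) and found within RefSeq hairpins of GRCm38.p6. Capitals mark the seed.
miR-29a*: aCTGATTTcttttggtgttcag
miR-29a: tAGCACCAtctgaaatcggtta
miR-130b*: aCTCTTTCcctgttgcactact
miR-130b: cAGTGCAAtgatgaaagggcat
miR-532-3p: cCTCCCACacccaaggcttgca
miR-532-5p: cATGCCTTgagtgtaggaccgt
let-7b*: cTATACAAcctactgccttccc
let-7b: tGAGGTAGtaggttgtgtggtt
miR-702: tGCCCACCctttaccccgctc
The sixth, miR-297c*, is given by name. In each pair shown, the arms of 1 hairpin have unlike seeds.

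The shRNA was about as abundant with dox as without it. It held 4630 counts without dox and 5063 with dox, 726 and 774 CPM (counts scaled to a total of 1000000 endogenous counts), a ratio of 1.07 (95% interval 1.02 to 1.11). Scaled by TMM factors the ratio was 1.03 and its interval, 0.993 to 1.08, spanned equality. In rtTA cells the same hairpin went from 786 to 24386 CPM with dox. The 2 libraries without rtTA hold 6378964 and 6540030 endogenous counts, and 448 microRNAs were listed in both. A further 14 were listed in the -dox library alone, with at most 3 counts, and 15 in the +dox library alone, with at most 5. A count of 0 allows up to 0.470 CPM (-dox) and 0.459 CPM (+dox), taken as 3 counts. The fibroblast and mesenchymal markers summed to 460903 CPM without dox and 447010 CPM with dox over 10 members.

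Most microRNAs lay close together in the 2 libraries. The log2 ratio of CPM, +dox over -dox, had a median of -0.04 and a standard deviation of 0.42 over the 372 microRNAs, and its middle 50% ran from -0.25 to 0.26. A microRNA was called when it was at least 2-fold apart and its 95% interval, an exact binomial one that covers counting error only, excluded equality. By this rule 3 microRNAs were higher with dox (0.806% of 372) and 3 lower (0.806%), and at 1.5-fold 28 were higher (7.53%) and 29 lower (7.8%). Together these were 6 microRNAs at 2-fold (1.61%) and 57 at 1.5-fold (15.3%). For scale, rtTA without dox, a comparison that shares the -dox library, had 2 higher (0.538%) and 5 lower (1.34%) at 2-fold, 1.88% in all, and a standard deviation of 0.36. At 1.5-fold it had 9 higher (2.42%) and 26 lower (6.99%), 9.41% in all. Dox in rtTA cells had 5 higher (1.34%) and 32 lower (8.6%) at 2-fold, 9.95% in all, and a standard deviation of 0.60.

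**Figure D1:**
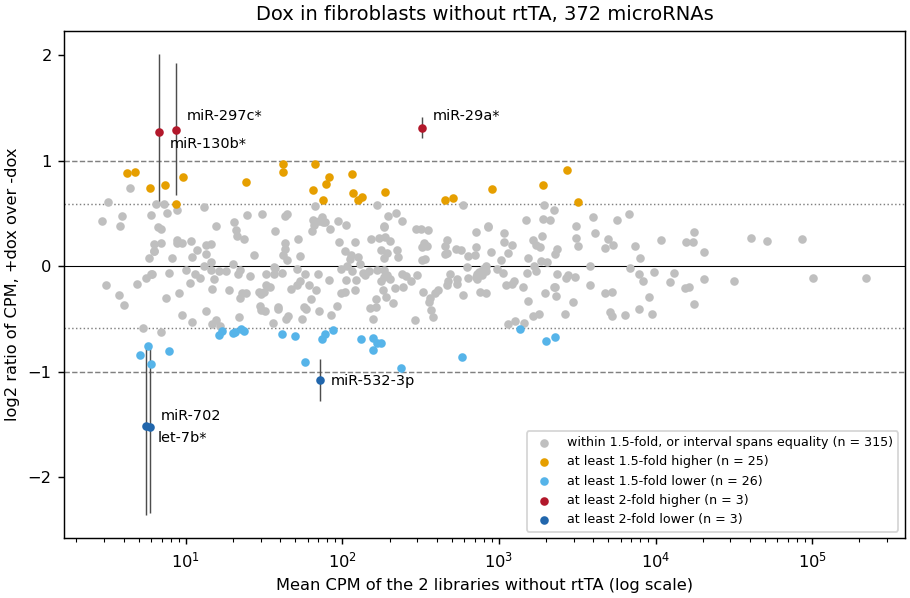
Log2 ratio of CPM (+dox over -dox, cells without rtTA) against the mean CPM of the 2 libraries on a log scale, 1 point per microRNA, with 95% counting intervals for the 6 that are at least 2-fold apart. Dashed lines stand at 2-fold and dotted lines at 1.5-fold; of the 6, miR-29a* alone has a mean above 100 CPM.

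The spread narrowed as abundance rose. Within 1.5-fold lay 28 of 48 microRNAs with a mean under 10 CPM (58.3%), 96 of 117 between 10 and 100 CPM (82.1%), 99 of 115 between 100 and 1000 CPM (86.1%), 69 of 75 between 1000 and 10000 CPM (92%) and 17 of 17 above that. Under 10 CPM the median counting interval spanned 2.54-fold from end to end, against 1.05-fold between 1000 and 10000 CPM. The 10 most abundant microRNAs had ratios from -0.36 to 0.32. miR-21, the leading microRNA of fibroblasts, had 230257 CPM without dox and 213211 with dox (-0.11). miR-125b-5p, common in mesenchymal cells, had the lowest ratio of these, from 19770 to 15413 CPM, and let-7f the highest, from 15542 to 19394 CPM.

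Of the 3 microRNAs called higher, only miR-29a* was well counted. It is the passenger of miR-29a, whose family restrains collagen and other matrix transcripts, and lies on chromosome 6 at 31062711 to 31062732 (minus strand, GRCm38), outside any annotated same-strand gene. It held 1185 counts (186 CPM) without dox and 3018 (461 CPM) with dox, a log2 ratio of 1.31 (1.22 to 1.41). The rtTA libraries held 215 CPM (-dox) and 199 CPM (+dox), so the +dox library without rtTA stood above the other three, which lay close together. Its guide miR-29a had 37100 and 44752 CPM, a ratio of 0.27.

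miR-297c* comes from the rodent-specific hairpin array in introns of Sfmbt2 and matches 4 hairpins there. It held 32 counts (5.02 CPM) without dox and 80 (12.2 CPM) with dox, a ratio of 1.29 (0.68 to 1.93), beside 4.44 and 1.20 CPM in the rtTA libraries without and with dox. miR-130b*, on chromosome 16 at 17124109 to 17124130 (minus strand) in an intron of 2610318N02Rik, held 25 and 62 counts, 3.92 and 9.48 CPM, a ratio of 1.27 (0.58 to 2.01). Its guide miR-130b, of a family that shares its seed with miR-301, had 825 and 824 CPM, a ratio of -0.0024. In both cases the +dox library without rtTA had the highest level of the 4 and the +dox library with rtTA the lowest.

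Among the 3 called lower, miR-532-3p was the best counted. It lies in an intron of Clcn5 on chromosome X at 7248419 to 7248440 (minus strand) and held 624 counts (97.8 CPM) without dox and 303 (46.3 CPM) with dox, a ratio of -1.08 (-1.28 to -0.88). The other arm, miR-532-5p, had 741 and 690 CPM (-0.10). With dox in rtTA cells miR-532-3p was also lower, 69.5 against 109 CPM, a ratio of -0.65.

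miR-702, a mirtron whose precursor ends are set by splicing of a Plod3 intron (chromosome 5, 136991520 to 136991540, plus strand), held 56 counts without dox and 20 with dox. Its levels were 8.78 and 3.06 CPM (-1.52, -2.34 to -0.76), and the rtTA libraries, at 4.10 and 2.93 CPM, lay nearer to the +dox library. let-7b*, on chromosome 15 at 85707379 to 85707400 in an exon of the noncoding Lncppara, held 53 and 19 counts, 8.31 and 2.91 CPM (-1.52, -2.35 to -0.74). Here the rtTA libraries, at 5.81 and 6.39 CPM, lay nearer to the -dox library. let-7b* has a near-identical listed microRNA, so reads may have been shared between copies.

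**Figure D2:**
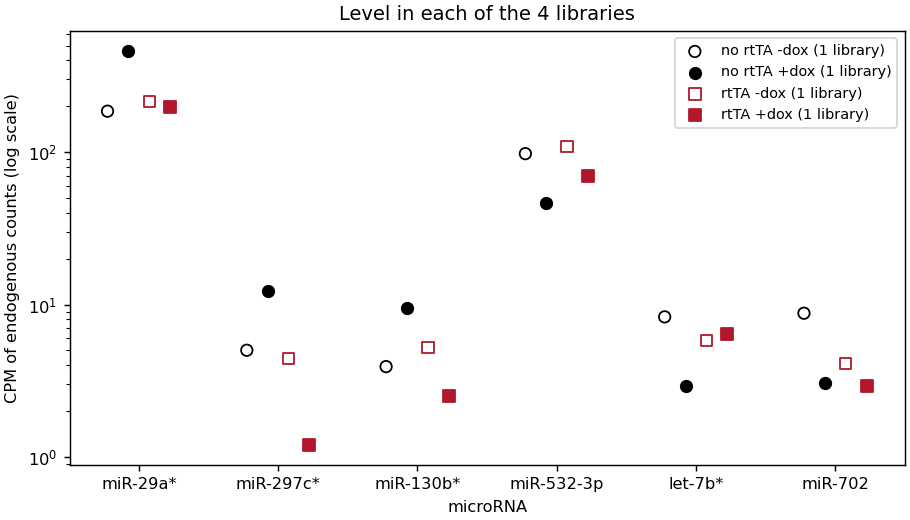
CPM on a log scale in each of the 4 libraries for the 6 microRNAs that are at least 2-fold apart in cells without rtTA, 1 symbol per library. For miR-29a* the +dox library without rtTA (461 CPM) stands above the other three (186 to 215 CPM).

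Among the 207 microRNAs with a mean of at least 100 CPM, where counting error is small, 12 were at least 1.5-fold higher with dox and 10 at least 1.5-fold lower. Over all 372 these were 28 (7.53%) and 29 (7.8%). After miR-29a*, the highest was miR-369-3p of the imprinted Dlk1-Dio3 region, at 1883 CPM without dox and 3537 with dox (0.91, 0.88 to 0.94). It was followed by miR-350, from an intron of Cep170, at 81.7 and 150 CPM (0.88, 0.72 to 1.03). Next came miR-136*, also of the Dlk1-Dio3 region, at 1424 and 2418 CPM (0.76), and miR-145*, passenger of a smooth muscle and fibroblast microRNA, at 673 and 1120 CPM (0.73). The 10 highest also held both miR-30e* (0.71) and miR-30a* (0.65), passengers with the same seed, then miR-32 (0.69), miR-411* (0.65) and miR-7a (0.63). Of these, miR-30e*, miR-30a* and miR-7a each have a near-identical listed microRNA, so reads may have been shared between copies.

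The lowest of this abundance was miR-483*, from an intron of Igf2, at 314 CPM without dox and 161 with dox (-0.97, -1.08 to -0.86). Both arms of the miR-423 hairpin in an intron of Nsrp1 were lower, miR-423-5p at 744 and 411 CPM (-0.86, -0.93 to -0.79) and miR-423-3p at 163 and 101 CPM (-0.69). miR-574-5p, from an intron of Fam114a1, had 198 and 114 CPM (-0.80), and miR-328 had 221 and 133 CPM (-0.73). The other five were miR-193b (-0.73), miR-433 (-0.71), miR-194 (-0.68), miR-125a-5p (-0.67) and miR-15b (-0.59). The sequences of 4 high and 4 low ones are shown for their base content:
miR-369-3p: aATAATACatggttgatcttt
miR-350: tTCACAAAgcccatacactttc
miR-136*: aTCATCGTctcaaatgagtctt
miR-32: tATTGCACattactaagttgca
miR-483*: tCACTCCTcccctcccgtctt
miR-423-5p: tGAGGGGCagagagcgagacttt
miR-574-5p: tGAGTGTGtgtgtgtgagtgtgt
miR-433: aTCATGATgggctcctcggtgt
A and U make up 76.2%, 59.1%, 63.6% and 68.2% of the first 4, and 38.1%, 43.5%, 52.2% and 45.5% of the last 4. Over all 10 highest the content ran from 50% to 76.2% (median 63.6%) and over all 10 lowest from 31.8% to 59.1% (median 44.5%), so the groups overlap: miR-30a* has 50% and miR-15b 59.1%.

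The levels in the rtTA libraries place each of the 2 libraries among the 4. Over all 372 microRNAs the +dox library without rtTA held the highest level of the 4 for 115 and the lowest for 91, and the -dox library the highest for 98 and the lowest for 55. Of the 28 microRNAs at least 1.5-fold higher with dox, 27 had their highest level of the 4 in the +dox library without rtTA, and 14 lay at least 1.5-fold above each of the other three libraries there. Only 1 lay at least 1.5-fold below each other library in the -dox library. Of the 29 that were lower, 21 had their highest level of the 4 in the -dox library, 7 of them at least 1.5-fold above all of the rest, and 17 had their lowest in the +dox library, 3 of them at least 1.5-fold below all of the rest. For miR-328, for example, the -dox library without rtTA held 221 CPM and the other three 119 to 138 CPM. These microRNAs were selected by the same 2 libraries, so the counts are a description.

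In the rtTA cells, where dox also induced the shRNA, the ratios with dox were only weakly related to those without rtTA (Pearson -0.189, Spearman -0.175). The 2 dox comparisons share no library, and 213 of 372 microRNAs (57.3%) had opposite signs in them, 125 of these with both counting intervals excluding equality. Of the 28 higher without rtTA, 23 had a ratio below 0 with rtTA (200 of all 372 did), with a median of -0.58. With rtTA, 12 of the 28 were at least 1.5-fold lower (17.7% of all 372 were). At least 1.5-fold higher were 0 of the 28 (11% of all, and 28.8% in either direction). Of the 29 lower without rtTA, 16 lay above 0 with rtTA (172 of all 372 did) and 13 below it, with a median of 0.06. With rtTA, 3 of the 29 were at least 1.5-fold higher and 4 at least 1.5-fold lower. miR-369-3p went from 2468 to 1301 CPM in rtTA cells (-0.92), miR-350 from 75.6 to 31.7 CPM (-1.25) and miR-32 from 96.9 to 43.8 CPM (-1.14). In the other direction, miR-423-5p went from 432 to 701 CPM (0.70) and miR-574-5p from 116 to 197 CPM (0.76). Without dox and without rtTA these stood at 744 and 198 CPM, so the 2 libraries without dox differed as well. For rtTA without dox, which shares the -dox library, the 29 lower had a median of -0.52 with 5 above 0. The 28 higher had 0.24 with 20 above 0, and all 372 had -0.07 with 155 above 0. The 4 of the 29 at least 1.5-fold lower with dox in both backgrounds were miR-15b (-0.59 without and -1.56 with rtTA), let-7d* (-0.90 and -0.60), miR-483* (-0.97 and -0.60) and miR-532-3p (-1.08 and -0.65). miR-702 had -0.49 with rtTA, with an interval that spanned equality.

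Strands rich in A and U tended to have higher ratios with dox. Across the 372 microRNAs, which are not independent replicates and were all read in the same 2 libraries, the Pearson correlation of the log2 ratio with the percentage of A and U was 0.387 (Spearman 0.374). Single bases gave 0.222 for U, 0.182 for A, -0.166 for C and -0.203 for G. In 5 classes of rising A and U content the median ratios were -0.14 (26.1% to 42.9%), -0.08, -0.07, -0.03 and 0.32 (61.9% to 77.3%). In the class richest in A and U, 17 of 71 microRNAs were at least 1.5-fold higher and 0 at least 1.5-fold lower, and in the poorest class 2 of 77 were higher and 13 lower. With dox in rtTA cells the correlation was -0.455 with A and U and 0.716 with G, and the same 5 classes had medians of 0.21, 0.11, -0.13, -0.20 and -0.44. For rtTA without dox, where no library had dox and which shares the -dox library, it was 0.210 with A and U and -0.0038 with G.

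Subtracting a linear trend on A and U content, which held 15% of the variance of the ratios, left 24 microRNAs at least 1.5-fold higher and 22 lower, of which 17 and 17 were among the 28 and 29 above. miR-532-3p was then at -0.82 and no longer past 2-fold, while the other 5 stayed past it. This trend was chosen after the data were seen, and its part in any single ratio was not tested. Mature length had a correlation of -0.129 with the ratio and log2 mean CPM one of -0.0031.

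**Figure D3:**
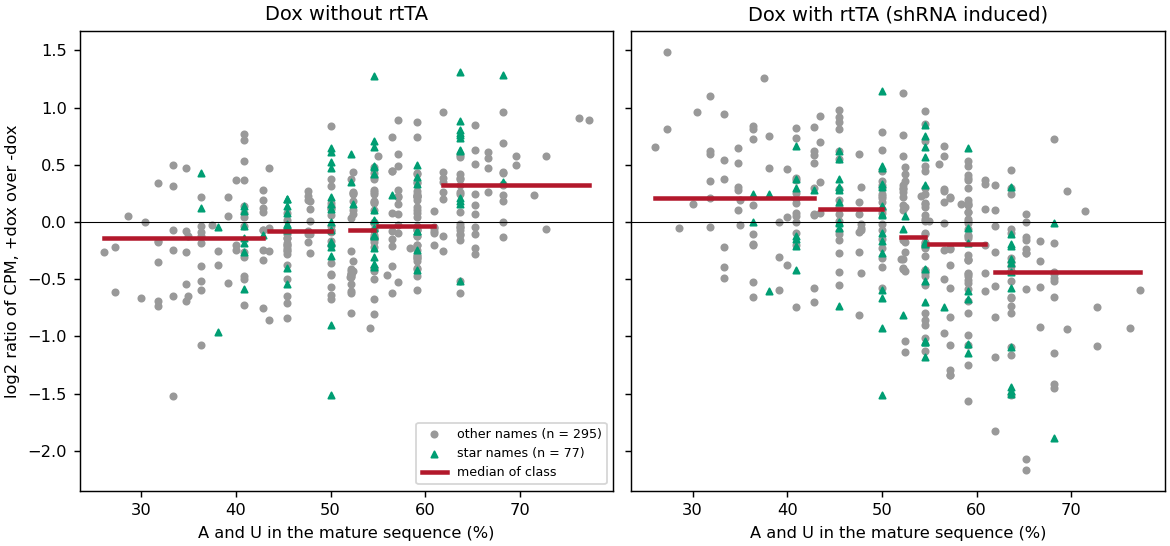
Log2 ratio of CPM with dox against the percentage of A and U in the mature sequence, without rtTA (left) and with rtTA (right), 1 point per microRNA, star names as triangles. Red bars are medians of 5 classes, which run from -0.14 to 0.32 on the left and from 0.21 to -0.44 on the right.

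Star names were common among the microRNAs higher with dox, but a star does not always mark the rarer arm. miR-136*, among the higher, held 9085 counts without dox and 15816 with dox, beside 954 and 948 of miR-136. Rarer arms without a star, such as miR-532-3p and miR-409-5p among the lower, are not in the counts below. Star names made up 77 of the 372 (20.7%), 14 of the 28 at least 1.5-fold higher (50%) and 3 of the 29 lower (10.3%). The median ratio was 0.11 over star names and -0.07 over the others. Star names were less abundant, with a median of 56.5 CPM against 186 CPM, and had about as much A and U (medians 52.2% and 54.5%). Among microRNAs above the median A and U content, 9 of 22 star names and 11 of 121 others were at least 1.5-fold higher. Among those at or under it, these were 5 of 55 and 3 of 174.

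Paired by hairpin, the arms showed little common shift. Over 125 hairpins with at least 20 counts in each library, the median share of the rarer arm was 4.68% without dox and 5.30% with dox. The odds of the rarer arm had a median log2 ratio of -0.02. They were at least 2-fold higher, with an exact interval that excluded equality, in 4 hairpins. miR-15b* went from 3.44% to 7.67% of its hairpin (log2 odds ratio 1.22, 1.03 to 1.42) and its arms had opposite ratios, 0.63 for miR-15b* and -0.59 for miR-15b. miR-29a* went from 0.498% to 1.02% (1.04, 0.94 to 1.14), miR-130b* from 0.473% to 1.14%, and miR-744* from 0.104% to 0.363% on 10 and 25 counts. The odds were at least 2-fold lower for miR-671-3p (4.33% to 1.82%), let-7b* (0.0931% to 0.0432%) and miR-7a* (4.14% to 2.04%).

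**Figure D4:**
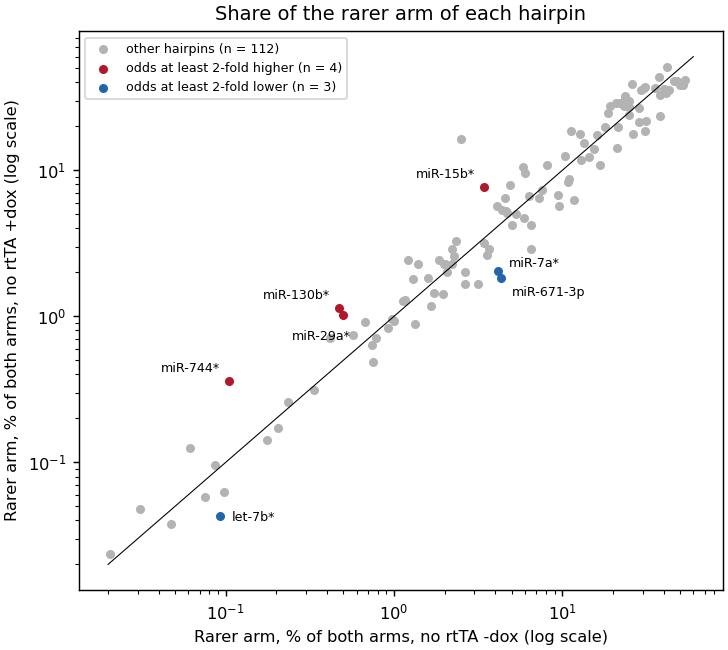
Share of the rarer arm in the counts of both arms of a hairpin, without dox (x axis) and with dox (y axis) in cells without rtTA, both on log scales, for 119 hairpins with a count above 0 for both arms in both libraries. The line marks equality, and the 7 named hairpins have odds at least 2-fold apart and intervals without equality. The 4 grey hairpins whose odds are also at least 2-fold apart hold at most 15 counts of the rarer arm in either library.

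Families and clusters are described by their members past the floor, beside all 372, which had a median of -0.04 with 171 above and 201 below 0. In the miR-29 family 1 of 6 members was called higher, miR-29a* (0.806% of all 372 were), and 5 of 6 lay above 0 (median 0.26). The guides share 1 seed and were close to one another:
miR-29b: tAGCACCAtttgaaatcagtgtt
miR-29c: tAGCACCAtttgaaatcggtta
miR-29b had 46958 and 55548 CPM (0.24) and miR-29c 734 and 957 CPM (0.38), while the passengers miR-29b* (-0.08) and miR-29c* (0.11) had intervals that spanned equality. With dox in rtTA cells all 6 lay below 0 (median -0.36). The guides hold 59.1% to 65.2% A and U, and with that trend subtracted the list median was 0.15. miR-29a and miR-29c each have a near-identical listed microRNA, so reads may have been shared between copies.

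The Clcn5 intron on chromosome X holds a run of hairpins (7237695 to 7248477, minus strand), and all 9 of its measured arms had ratios below 0. They ran from -1.08 (miR-532-3p) and -0.75 (miR-188-3p, on 46 and 28 counts) to -0.10 (miR-532-5p), with a median of -0.25. Their summed level was 3216 CPM without dox and 2766 with dox, beside 3309 and 3379 CPM in the rtTA libraries. Of the 9, 1 was called lower at 2-fold (0.806% of all 372 were), and in rtTA cells 6 of the 9 lay above 0 with dox. The abundant miR-500 had 1174 and 1034 CPM (-0.18) and miR-501-3p 184 and 130 CPM (-0.50), while the interval of miR-501-5p (-0.13) spanned equality.

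Mirtrons and other Drosha-independent microRNAs, whose precursors bypass the nuclear cut, had a median of -0.59, with 5 of 5 below 0 and 1 called lower (0.806% of all 372 were). miR-877, a mirtron, had 94.4 and 60.4 CPM (-0.64), its star -0.59 on 41 and 28 counts, miR-320 2552 and 2097 CPM (-0.28) and miR-484 307 and 289 CPM (-0.08). The intervals of miR-877* and miR-484 spanned equality, and miR-877 and miR-877* are arms of 1 hairpin. These strands are poor in A and U (median 36.4%), and with that trend subtracted the median was -0.36. Their summed level was 2968 CPM without dox and 2454 with dox, beside 2541 and 4506 CPM in the rtTA libraries without and with dox. For rtTA without dox, where no library had dox and which shares the -dox library, the list median was also below 0 (-0.39). With dox in rtTA cells the list median was -0.15: 3 of the 5 lay below 0 there too, while miR-877 (0.19) and miR-320, from 2226 to 4212 CPM (0.92), lay above it.

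The let-7 family, which restrains growth, split: of 16 members with miR-98, 7 lay above and 9 below 0, and 1 was called lower, let-7b* (0.806% of all 372 were). The median of -0.04 turned positive without near-identical microRNAs (0.14) and with a trend on G subtracted (0.03). The first of these settings leaves out guides such as let-7f and miR-98, and its 0.14 is the ratio of the passenger let-7g*. The guides of the family share a seed and ran from -0.41 (let-7b, 8914 and 6729 CPM) to 0.44 (miR-98, 1272 and 1721 CPM). The passenger let-7d* had 74.9 and 40.1 CPM (-0.90), while let-7c-2* had 58.2 and 99.8 CPM (0.78).

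Another group by seed, that of miR-15 and miR-16, which hold back the cell cycle, had 6 of 6 guides below 0 (median -0.47). It was singled out after its values were seen, and the whole list of miR-15, miR-16 and their relatives, passengers included, had a median of -0.15 with 2 of 9 above 0. The seeds of the 5 that RefSeq lists are alike:
miR-15b: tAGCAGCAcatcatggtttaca
miR-16: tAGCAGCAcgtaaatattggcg
miR-195: tAGCAGCAcagaaatattggc
miR-497: cAGCAGCAcactgtggtttgta
miR-322: cAGCAGCAattcatgttttgga
miR-15b had 1648 and 1092 CPM (-0.59), miR-322 1905 and 1371 CPM (-0.47), miR-16 12971 and 11664 CPM (-0.15) and miR-15a 747 and 710 CPM (-0.07). miR-195 (-0.53, on 83 and 59 counts) and miR-497 (-0.46, on 70 and 52) were rare, and the interval of miR-497 spanned equality. The 6 guides had a median A and U content of 58.1%. With that trend subtracted 6 of 6 lay below 0 (median -0.51), a description only, since the trend was fitted to the same 2 libraries. In rtTA cells 5 of the 6 lay below 0 with dox (median -0.31), with miR-15b at -1.56.

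The 4 guides with the seed of miR-181 also lay below 0, with a median of -0.42, though miR-181c (-0.01) is within the shift of 0.01 that scaling without the 10 most abundant microRNAs gives; the whole miR-181 list of 6 had the same median and 5 below 0, and in rtTA cells 5 of its 6 lay above 0. The 4 miR-34 and miR-449 guides and the 5 guides that share the seed of miR-17 were all below 0 too, with medians of -0.15 and -0.10. Among these the intervals of miR-34b-5p and miR-106b spanned equality. In rtTA cells all 4 and all 5 lay above 0 with dox (medians 0.24 and 0.26). Without rtTA the whole list of the miR-17-92 cluster and its paralogs had 9 of 17 above 0 and a median of 0.08. That median turned negative with a floor of 100 counts (-0.04), without star names (-0.075) and with the A and U trend subtracted (-0.03). Guides of the miR-30 family had 4 of 5 above 0 (median 0.17). Larger arrays split: the Dlk1-Dio3 region had 37 of 69 members above 0 (median 0.07, 5 at least 1.5-fold higher and 5 lower, beside 7.53% and 7.8% of all 372), and the Sfmbt2 introns 6 of 22 (median -0.09). In the list of miR-130 and miR-301, which holds miR-130b*, 2 of 5 lay above 0, and its median of -0.0024 changed sign with scaling without the 10 most abundant microRNAs (0.01), without near-identical microRNAs (1.27, from miR-130b* alone) and with the G trend subtracted (0.05).

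**Figure D5:**
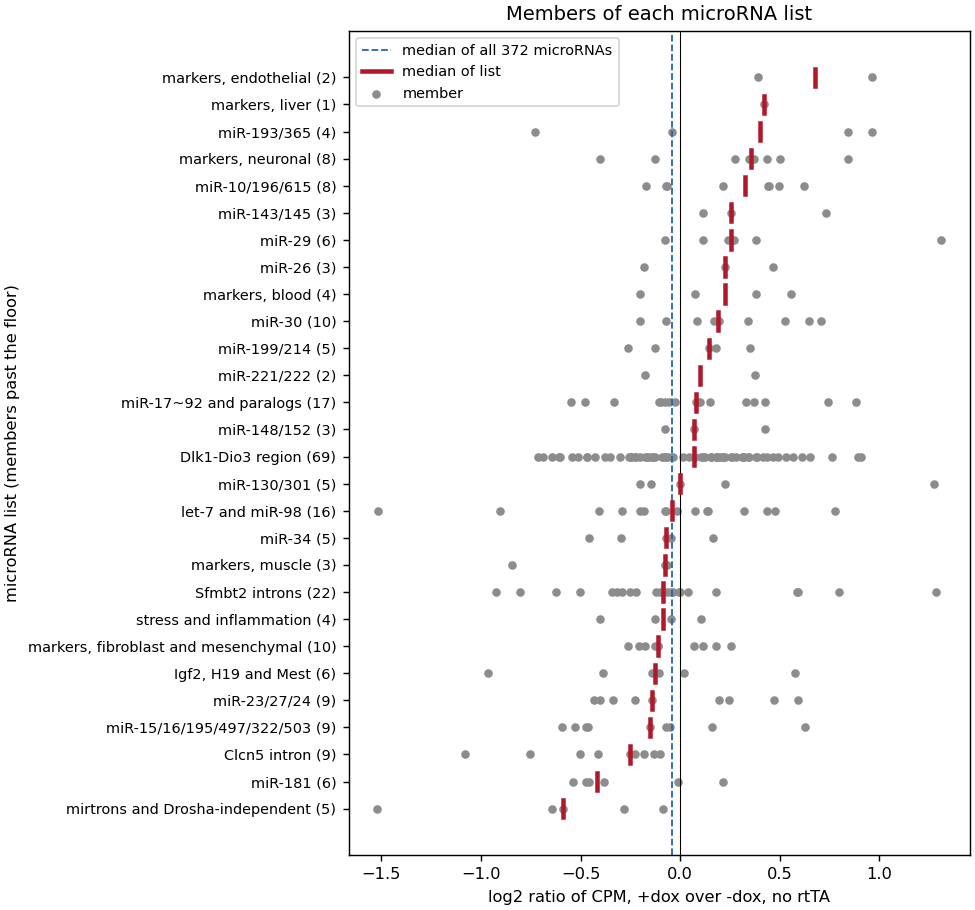
Log2 ratio of CPM (+dox over -dox, cells without rtTA) of the members of each microRNA list, 1 grey point per microRNA past the floor, with the list median as a red bar and the number of members in brackets. The dashed line is the median of all 372 microRNAs; all members of the Clcn5 intron and of the Drosha-independent list lie left of 0.

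Markers of other cell types were scarce in both libraries. The muscle markers summed to 261 CPM without dox and 245 with dox, nearly all from miR-206 at 246 and 234 CPM (-0.07), with miR-133a at 42 and 24 counts (-0.84) and miR-1 at 51 and 50 counts (-0.06). The neuronal markers summed to 679 and 794 CPM, with 6 of 8 above 0 (median 0.36). miR-9 had 182 and 258 CPM (0.50), miR-137 6.90 and 12.4 CPM (0.84) and miR-129-3p 170 and 128 CPM (-0.40).

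The endothelial markers summed to 120 and 175 CPM: miR-126-3p had 91.4 and 120 CPM (0.39) and miR-126-5p 28.2 and 55.0 CPM (0.96, 0.70 to 1.23). In rtTA cells miR-126-5p went from 32.3 to 14.3 CPM with dox (-1.18). The blood markers summed to 58.5 and 60.1 CPM, with 4 of 6 past the floor and 3 of these above 0 (median 0.23), and miR-122 of the liver held 16 and 22 counts. None of the 6 epithelial markers passed the floor, with at most 16 counts in either library, and none of the pluripotency markers did, with at most 2. Whether a few cells of these types differed between the cultures, and what part they had in the ratios above, was not tested; fewer cells of a type and less RNA per cell cannot be told apart in bulk samples.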

How the data were processed

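Small RNA counts of 4 mouse embryonic fibroblast libraries were used, 2 of them for the main comparison. The deposited values are raw read counts per microRNA, per the file headers, with 1 further row for the luciferase shRNA; no source used here gives the aligner, mismatches allowed, treatment of shared reads or database version. An unlisted microRNA was taken as 0. Counts were scaled to CPM of endogenous counts, without the shRNA. The floor was a mean over the 4 libraries equal to 20 counts in the shallowest (3.14 CPM), which kept 372 microRNAs with 99.99% of counts. Ratios have exact conditional binomial 95% intervals, and arm odds exact conditional intervals (SciPy 1.17.1); all cover counting error only, since PCR reads without molecular identifiers are not independent molecules. No p-value was computed. The calculation was checked on simulated counts.

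Alternatives were TMM (edgeR 4.0.16) and DESeq2 (1.42.0) factors, 2 other scalings, other floors, and leaving out star names or the 89 microRNAs with another listed one at most 2 mismatches away. Positions are matches to GENCODE M21 microRNA genes (GRCm38), 322 of 372 to 1 place; 308 lie in the RefSeq table. Lists by location are the Dlk1-Dio3 region and Sfmbt2; the others go by name. The named microRNAs are the 10 most abundant, all called, the 10 highest and lowest of at least 100 CPM, their other arms, and members of lists that hold a called one or mark a cell type; others named were singled out after their values were seen. Members, lists and rules were chosen with earlier results of these data known.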

Additional observations from a re-analysis of the deposited data

Results flagged for a closer look

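Of 372 microRNAs, 125 (33.6%) had log2 ratios with dox of opposite sign without and with rtTA, both with counting intervals that excluded 0. Given here are the 3 of these that were 2-fold apart without rtTA and the 15, 2 of them the same, that were at least 1.5-fold apart in both cell types, each with its ratio without and then with rtTA. Higher without rtTA were miR-29a* (1.31 and -0.11), miR-297c* (1.29 and -1.89), miR-130b* (1.27 and -1.05), miR-126-5p (0.96 and -1.18), miR-365 (0.96 and -1.41), miR-369-3p (0.91 and -0.92), miR-190 (0.89 and -0.59) and miR-350 (0.88 and -1.25). So were let-7c-2* (0.78 and -1.5), miR-32 (0.69 and -1.14), miR-411* (0.65 and -0.70), miR-15b* (0.63 and -1.45) and miR-24-1* (0.59 and -0.81). Lower without rtTA were miR-323-5p (-0.61 and 1.48), miR-574-5p (-0.80 and 0.76) and miR-423-5p (-0.86 and 0.70). For rtTA without dox, which shares the -dox library, these lower ones had ratios of -0.94, -0.77 and -0.79 in the same order. The interval of miR-29a* with rtTA, -0.21 to -0.01, ended close to 0, and ratios with rtTA are given here under CPM scaling only. Across microRNAs the correlation of the ratio with the percentage of A and U was 0.387 without rtTA and -0.455 with rtTA, while for G it was -0.203 and 0.716, in the same order. With 1 library per group these differences between the cells with and without rtTA were not tested.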

How the results depend on the processing

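Counts at 2-fold rested on few and rare microRNAs. Against 3 higher and 3 lower, a floor of 5 counts gave 4 and 6, no floor 5 and 6, a floor of 100 counts 1 and 1 (miR-29a* and miR-532-3p), and star names left out 0 and 2. A trend on G subtracted gave 3 and 5. At 1.5-fold the counts of 28 and 29 were within 1.5 times of these under every alternative run except star names left out, which left 14 higher and 26 lower. Scaling moved every log2 ratio by -0.05 (TMM), -0.02 (DESeq2), 0.01 (without the 10 most abundant) or under 0.001 (shRNA counted); TMM put miR-483* past 2-fold (-1.01). Hairpins with arm odds 2-fold apart stayed at 4 and 3 with a minimum of 100 counts. The correlation with A and U ran from 0.366 to 0.442 and that with G from -0.276 to -0.203 over the floors and subsets run. Leaving out a replicate could not be done with 1 library per group. No paired analysis was possible because each group has 1 library.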
